A study of Brassica rapa subsp. pekinensis with 2 samples.

Results

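The miRNAs described here carry the numbers miR9408 to miR9411 and miR9552 to miR9569, and were chosen from the deposited table of small RNAs by that number alone, whatever the prefix, letter, arm or edit in the name. A total of 123 distinct sequences, with 123 names and 136 records, had such a number, out of 1152 distinct sequences, 1220 names and 1359 records in the table. Of the 22 numbers, 19 had at least 1 record, and 3 (miR9410, miR9564 and miR9567) had none. Most names begin with bra, for Brassica rapa, and the rest with bol, for Brassica oleracea.

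Small RNA was sequenced from Chinese cabbage (Brassica rapa subsp. pekinensis) of the DH line ‘FT’, a line of doubled haploid plants grown in a greenhouse. The labels of both libraries give a cold treatment of the seeds (vernalization, 4 °C for 20 days), whereas the methods of the study describe it for the ‘Ant’ plants only, so that cold and tissue cannot be told apart. The library ‘Ant’ holds anthers collected at different developmental stages, and ‘Mix’ holds roots, stems and leaves of seedlings with 4 true leaves. Neither label gives a plant age in days or a number of plants. With 1 library per group there was no replicate, and every test below compares these 2 libraries and not the conditions. The 95% intervals hold counting error alone, since each group has 1 library. They also treat each read as a separate molecule, although PCR copies of a molecule cannot be told apart.

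The distinct sequences of the table held 1393754.5 reads in ‘Mix’ and 1346716.2 in ‘Ant’, where fractions come from reads that the authors divided among names. A count of 0 allows up to 3 reads, or 0.000215% of the listed reads in ‘Mix’ and 0.000223% in ‘Ant’. As a check of the ‘Ant’ label, miR845, a family expressed in pollen of Arabidopsis, had 95 reads in ‘Mix’ and 11214 in ‘Ant’ over its 3 sequences.

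A plant miRNA is cut by a Dicer-like enzyme from a hairpin, the precursor, whose paired sides are called the 5′ and the 3′ arm. The cut leaves a short duplex with ends that overhang, and 1 strand of it is loaded into an Argonaute protein and pairs with target transcripts. Some miRNA families are shared by all land plants, whereas others are known from 1 lineage only. Small RNAs of 24 nt in plants are mostly made by a separate Dicer-like enzyme and act on chromatin at repeats and transposons. No target or function is given here for the families below, because none was tested in these data.

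Most of the reads came from few sequences, and 18 sequences of 9 families reached at least 100 normalized reads in a library. Those of the families called higher in ‘Ant’ are shown first, together with bra-miR9408-5p, a partner arm below that level, with bases 2 to 8, the seed, in capitals and T in place of U as in the deposited table. The letters that follow the arm in a name are the authors’ notes on how the sequence differs from the miRBase entry. Names with p5 or p3 in place of 5p or 3p mark a sequence that is not a miRBase mature sequence, also where that arm has one.
bra-MIR9569-p5: tTTCACTCacaataaaatcat
bra-MIR9569-p3: tTGAAAGTgaaatgaaagata
bra-miR9556-5p_R-2_1ss12AT: gTCAATTGgtgttagtagt
bra-miR9556-3p: tCTACTTTcaccaattggcct
bra-miR9408-5p: cAACAGTCtcaggatggaaaa
bra-miR9408-3p: tTTCATCTtagagaatgttgtt
bra-miR9553-5p: tACAAAGCtgaagctaattatg
bra-miR9553-3p: tAATCAGCtccagctatgtaca
bra-miR9554-5p_L-1R+1_1ss18AG: aATGATACttggatatgatct
bra-miR9554-3p_1ss2CT: tTATATCCaagtatcattcct
bra-MIR9559-p5: tCATTAGGtttggattttggt

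The next set holds the most read sequences of miR9552, which was called lower in ‘Ant’, and of miR9557 and miR9563b, whose families were not called, with the same use of capitals.
bra-MIR9552b-p5: cGGTGATGaagaagctagcgc
bra-miR9552b-3p: tGACCGAGtagaccgatagtc
bra-MIR9552a-p5: cTGTCCGGtgaggaagaagctagc
bra-MIR9552a-p3: tCCGGTGAggaagaagctagc
bra-miR9557-5p: tTTTGCGTttcaactcggtcc
bra-miR9557-3p_1ss6GA: gCTGAATTggaacgcaaaatc
bra-MIR9563b-p5_2ss19AC20AG: tTAACTTTtaactaaaaacgc
bra-MIR9563b-p3_1ss1CT: tCGGTTTTtagcttttttagt

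None of these seeds occurred in more than 1 family. The 123 sequences had 78 distinct seeds, of which 57 occurred in 1 sequence and 21 in several, and 0 were shared between families. A total of 9 seeds, in 22 of the sequences, were also found outside the families.

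A total of 38 of the 123 sequences were called higher in ‘Ant’, 18 were called lower and 67 were not called. The call asked for a p-value of at most 0.05 in each of a chi-square test and Fisher’s exact test on normalized reads, and for a more than 2-fold difference between ‘Ant’ and ‘Mix’ either way. Over all 1152 sequences 46.5% were called, 27.3% higher and 19.3% lower, and the members stood near that background with 30.9% higher and 14.6% lower. The median log2 ratio of the 113 sequences above 3 reads in a library was 0.29, beside 0.37 over all 997 such sequences, with values under 3 reads set to 3. In a bulk library, a higher share of a miRNA cannot be told apart from a larger share of the cells that make it.

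Counted in reads, the members took a larger share of ‘Ant’ than of ‘Mix’. They held 9851.7 reads in ‘Mix’, or 0.707% of the listed reads (Wilson interval 0.693 to 0.721), and 88447.5 reads in ‘Ant’, or 6.57% (6.53 to 6.61). The normalized sum was 8.70-fold higher in ‘Ant’. Without miR9569 it was 1.96-fold higher, so that a single family carried most of the difference. Of 2 other sets of families known from Brassica, the 18 sequences of miR1140 and miR6028 to miR6036 had a ratio of summed reads of 0.892, with 6 called higher and 3 lower. The 32 sequences of miR5711 to miR5726 had a ratio of 0.818, but 16 of them were called lower and 8 higher, with a median log2 ratio of -1.60 over the 31 above 3 reads.

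Among the 19 families, 10 were called higher in ‘Ant’ by their summed reads, 3 were called lower and 6 were not called. Totals of families outside these numbers were not computed, so this count has no background share beside it and describes these families only. The plot of family totals shows that the ratios spread over a far wider range above 0 than below it. Of these families 14 had a single precursor position each.

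**Figure D1:**
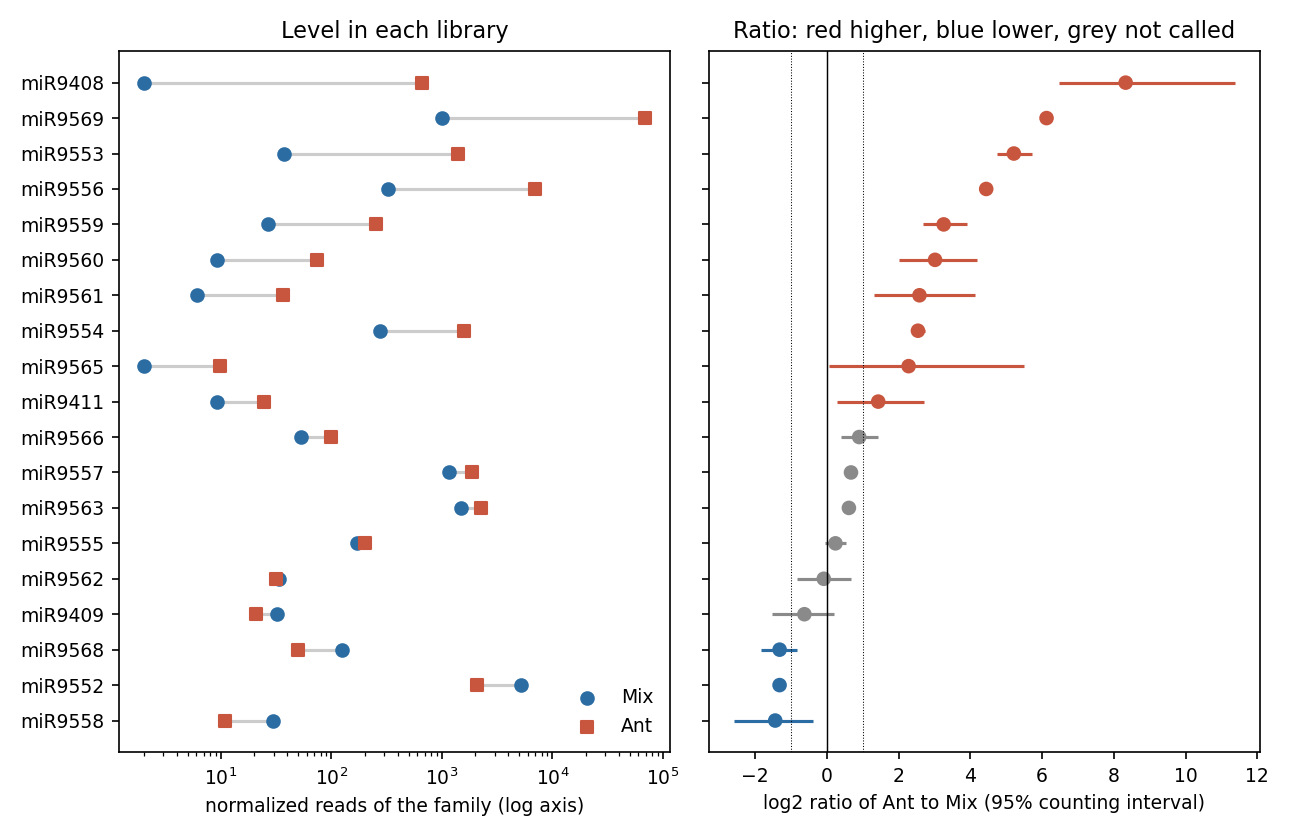
Normalized reads of each family in ‘Mix’ (circles) and ‘Ant’ (squares) on a log axis at the left, and the log2 ratio of ‘Ant’ to ‘Mix’ with its 95% counting interval at the right, where dotted lines mark a log2 ratio of 1 and -1. The 10 families in red were called higher, from miR9408 at 8.33 down to miR9411 at 1.43, and the 3 in blue were called lower.

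miR9569 was the most abundant of the families in ‘Ant’. It had 980 reads in ‘Mix’ and 70506 in ‘Ant’, a log2 ratio of 6.12 (6.03 to 6.22), and made up 9.95% of the members’ reads in ‘Mix’ but 79.7% in ‘Ant’. Both listed arms moved alike. bra-MIR9569-p3 had 848 reads in ‘Mix’ and 59123 in ‘Ant’, a 67.5-fold difference (log2 6.08, 5.98 to 6.18), and went from rank 96 among all sequences to rank 7. bra-MIR9569-p5 had 132 reads in ‘Mix’ and 11383 in ‘Ant’ (log2 6.38, 6.14 to 6.64), and went from rank 191 to rank 22. The 5′ arm held 13.5% of the family’s reads in ‘Mix’ (11.5 to 15.8) and 16.1% in ‘Ant’ (15.9 to 16.4).

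The position of the miR9569 sequences on their hairpin differed from the miRBase annotation. The single precursor lies at A03:29064437-29064628 on the minus strand, in the positions of the deposited table, whose genome build is not named there. It is shown here with the listed sequences in capitals, p5 at bases 22 to 42 and p3 at bases 159 to 179.
bra-MIR9569: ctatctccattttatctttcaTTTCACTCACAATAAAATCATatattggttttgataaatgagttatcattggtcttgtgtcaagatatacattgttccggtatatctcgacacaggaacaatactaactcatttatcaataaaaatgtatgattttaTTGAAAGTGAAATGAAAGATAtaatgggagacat

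The table also prints each miRBase precursor with its annotated mature stretches marked. Neither miR9569 sequence overlapped such a stretch, since p5 ended 17 bases away from the nearest one and p3 began 24 bases away. On the deposited secondary structure both ends of the p5 and p3 pair overhung by 9 bases, where a Dicer-like cut leaves an overhang of 2 bases at each end. No sequence of the table held a run of 12 bases from the annotated stretches of miR9569.

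This comparison was possible for 27 of the 123 sequences, those on a precursor with the same bases as the miRBase precursor. Of these, 16 were identical to an annotated stretch, all of them marked as present in miRBase, 5 overlapped one in part and 6 shared no base with one. The 6 belong to miR9569, miR9552 and miR9566. They held 24.1% of all member reads in ‘Mix’ and 80.8% in ‘Ant’, while the other 21 sequences held 52.2% and 12.9%. Of the reads of the 6, miR9552 gave 1368.5 in ‘Mix’ and 932.5 in ‘Ant’, and miR9569 gave 980 and 70506.

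miR9556 was the second family by reads in ‘Ant’. It had 318 reads in ‘Mix’ and 7125 in ‘Ant’ (log2 4.44, 4.28 to 4.61). bra-miR9556-3p had 37 reads in ‘Mix’ and 5870 in ‘Ant’ (log2 7.26, 6.80 to 7.77). The other arm, bra-miR9556-5p_R-2_1ss12AT, a 19-nt form, had 281 reads in ‘Mix’ and 1255 in ‘Ant’ (log2 2.11, 1.93 to 2.31). Both arms were higher in ‘Ant’, but by such different amounts that the main arm changed: the 5′ arm held 88.4% of the family’s reads in ‘Mix’ (84.4 to 91.4) and 17.6% in ‘Ant’ (16.8 to 18.5).

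miR9408 and miR9553 were rare in ‘Mix’. bra-miR9408-3p had 2 reads in ‘Mix’ and 644 in ‘Ant’, a log2 ratio of 8.29 with a counting interval of 6.43 to 11.3. bra-miR9408-5p was listed at 0 reads in ‘Mix’ and 19 in ‘Ant’, at least 6.14-fold higher against the floor of 3 reads. Another form, bol-miR9408_L-1R+2_1ss23CT, is named here after its values were seen, and begins with the same bases as bra-miR9408-3p. It had 0 reads in ‘Mix’ and 1 in ‘Ant’.

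The arms of miR9553 rose together. bra-miR9553-5p had 16 reads in ‘Mix’ and 649 in ‘Ant’ (log2 5.30, 4.59 to 6.11), and bra-miR9553-3p had 21 and 766 (log2 5.14, 4.52 to 5.84). The share of the 5′ arm was 43.2% in ‘Mix’ (28.7 to 59.1) and 45.9% in ‘Ant’ (43.3 to 48.5), with overlapping intervals. On the deposited structures, the pairs of miR9408 and miR9553 had an overhang of 2 bases at both ends.

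miR9554 was also higher on both arms, again unequally. bra-miR9554-3p_1ss2CT had 153 reads in ‘Mix’ and 1340 in ‘Ant’ (log2 3.08, 2.84 to 3.34). bra-miR9554-5p_L-1R+1_1ss18AG had 116 and 271 (log2 1.18, 0.86 to 1.50). The call of the 5′ sequence was lost with TMM scaling, which gave a log2 ratio of 0.97, and with edgeR’s exact test when a biological coefficient of variation of 0.4 was assumed. The 5′ arm held 43.1% of the family’s reads in ‘Mix’ (37.3 to 49.1) and 16.8% in ‘Ant’ (15.1 to 18.7).

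miR9559 rose on 1 arm. bra-MIR9559-p5 had 19 reads in ‘Mix’ and 249 in ‘Ant’ (log2 3.67, 2.99 to 4.42), whereas bra-miR9559-3p, named after its values were seen, had 7 reads in each library. The listed p5 sequence shared 13 bases with the annotated mature stretch of that arm.

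The other families called higher were sparse. bra-miR9560a-5p had 4 reads in ‘Mix’ and 51 in ‘Ant’ (log2 3.63, 2.18 to 5.56). bra-miR9561-5p_L-2R+1 had 6 and 37 (log2 2.58, 1.32 to 4.11). bra-miR9565-5p had 10 reads in ‘Ant’ and was at 0 in ‘Mix’, which makes it at least 3.23-fold higher. For miR9411 the family sum of 9 and 25 reads was called, but its most read sequence, bol-MIR9411-p5_2ss4TG21AG, was not, with 8 and 14 reads (log2 0.76, -0.59 to 2.22).

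The hairpin of miR9561 also carried another family’s name. On its 3′ arm the table lists bra-miR5712_1ss13AG, with 1113 reads in ‘Mix’ and 675 in ‘Ant’, which was not called (log2 -0.77). The ratio was thus above 0 on the 5′ side of this hairpin and below 0 on the 3′ side. bra-miR5712_1ss13AG is no member, and the pair could not be placed on the structure.

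**Figure D2:**
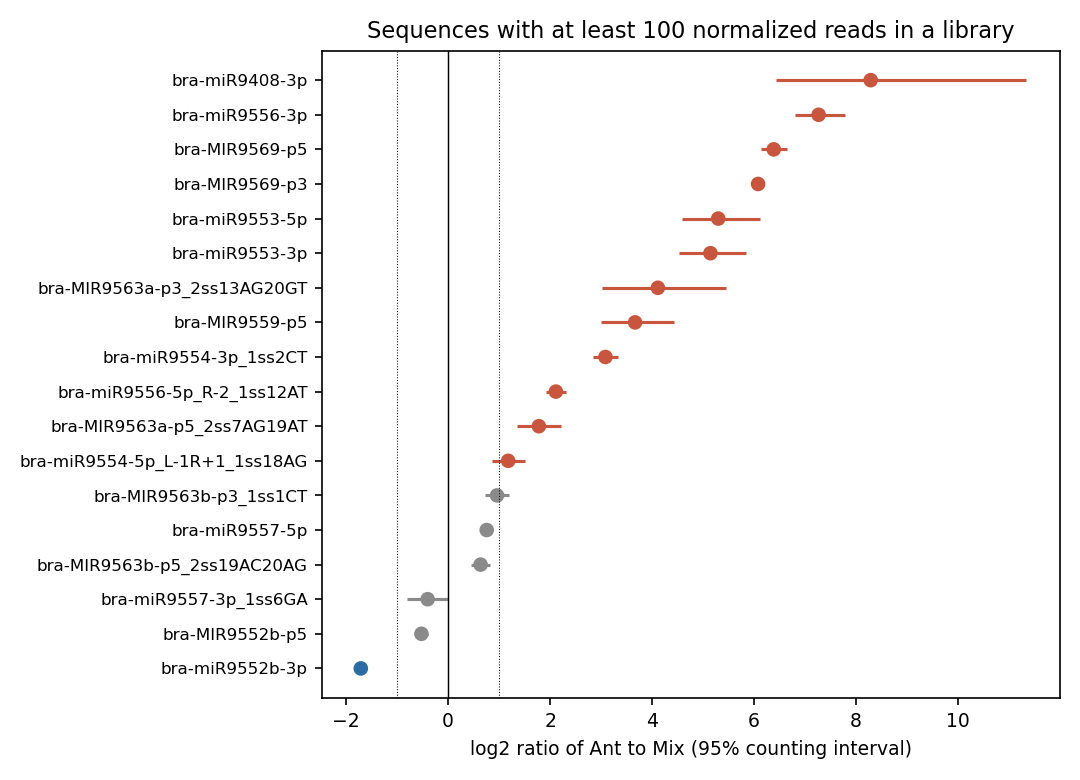
Log2 ratio of ‘Ant’ to ‘Mix’ with its 95% counting interval for the 18 sequences with at least 100 normalized reads in a library, where dotted lines mark a log2 ratio of 1 and -1. A total of 12 sequences in red were called higher, 1 in blue, bra-miR9552b-3p, was called lower, and 5 in grey were not called. A sequence could reach that level in 1 library alone, which favours large ratios. The share of calls among the 256 sequences of the table at that level was not computed, so the counts describe these sequences only.

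miR9552 was the most abundant of the families in ‘Mix’ and was lower in ‘Ant’. It had 5153 reads in ‘Mix’ and 2126 in ‘Ant’ (log2 -1.32, -1.40 to -1.25), or 52.3% of the members’ reads in ‘Mix’ and 2.40% in ‘Ant’. bra-miR9552b-3p had 3784.5 reads in ‘Mix’ and 1193.5 in ‘Ant’ (log2 -1.71, -1.81 to -1.62). bra-MIR9552b-p5 had 1282 and 921.5 (log2 -0.52, -0.65 to -0.40) and was not called. At the second precursor, bra-MIR9552a-p3 had 66.5 reads in ‘Mix’ and 7 in ‘Ant’ (log2 -3.29, -4.67 to -2.18). bra-MIR9552a-p5, named after its values were seen, had 20 and 4.

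The precursors of miR9552 lie on opposite strands of 1 stretch of chromosome A09, at A09:18283366-18283579 on the plus strand for miR9552a and A09:18283272-18283520 on the minus strand for miR9552b, and overlap by 155 bases. On the miR9552b hairpin, shown with the listed sequences in capitals, p5 fills bases 100 to 120 and 3p bases 121 to 141, end to end.
bra-MIR9552b: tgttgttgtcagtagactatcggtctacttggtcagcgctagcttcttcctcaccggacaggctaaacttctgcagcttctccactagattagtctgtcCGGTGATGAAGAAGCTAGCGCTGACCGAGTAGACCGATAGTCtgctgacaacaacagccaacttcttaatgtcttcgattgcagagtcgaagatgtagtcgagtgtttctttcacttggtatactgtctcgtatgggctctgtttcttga

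By the deposited structure both of these sequences lie on the 3′ side of the hairpin, so the name p5 does not match the fold. The same held for bra-MIR9552a-p5, which at bases 95 to 118 contains the whole of bra-MIR9552a-p3 at bases 98 to 118. Among the 92 member sequences that could be placed once on a precursor, the arm label differed from the structure in 3, these 2 and a miR9563a form, beside 1 of 645 other sequences. The arm shares of miR9552, 25.3% on p5 in ‘Mix’ (24.1 to 26.5) and 43.5% in ‘Ant’ (41.5 to 45.7), thus compare neighbouring sequences of 1 side.

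The other families called lower had few reads. bra-miR9568-5p_L-2R+1 had 92.5 reads in ‘Mix’ and 38 in ‘Ant’ (log2 -1.33, -1.92 to -0.78), and the other arm, bra-miR9568-3p, named after its values were seen, had 31 and 13 (log2 -1.30). Both arms of miR9568 were called lower, and its 5′ share was 74.9% in ‘Mix’ and 74.5% in ‘Ant’. bra-miR9558-3p had 18 and 6 reads (log2 -1.63, -3.25 to -0.24). The calls of both miR9568 sequences and of bra-miR9558-3p were lost with edgeR’s exact test, set as for miR9554.

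miR9557 was abundant in both libraries and was not called. bra-miR9557-5p had 1027 reads in ‘Mix’ and 1792 in ‘Ant’ (log2 0.76, 0.65 to 0.87). bra-miR9557-3p_1ss6GA had 124 and 97 (log2 -0.40, -0.80 to -0.01). The intervals of the arms do not overlap, and the 5′ share was 89.2% in ‘Mix’ (87.3 to 90.9) and 94.9% in ‘Ant’ (93.8 to 95.8).

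The remaining families were not called by their sums. The 4 sequences of miR9555 were not called, and the most read of them, bra-MIR9555b-p3_1ss20AG, had 52 reads in ‘Mix’ and 60 in ‘Ant’ (log2 0.16, -0.40 to 0.72). bra-miR9562-5p had 23 and 15 (log2 -0.66, -1.71 to 0.34). For miR9566, the sum of 52 and 100 reads was not called (log2 0.90, 0.40 to 1.41), while its most read sequence was: bra-MIR9566-p5 had 25 reads in ‘Mix’ and 60 in ‘Ant’ (log2 1.22, 0.52 to 1.95). That call was lost with edgeR’s exact test, set as for miR9554.

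The forms of miR9409 went in opposite directions. The family sum of 31.5 reads in ‘Mix’ and 21 in ‘Ant’ was not called (log2 -0.63), and the log2 ratio became 0.02 with overlapping forms counted once. bol-miR9409_L-1_2ss15GC21TC had 10 reads in ‘Ant’ and was at 0 in ‘Mix’, again at least 3.23-fold higher. bol-MIR9409-p3_2ss13GC17GT_1 and bol-MIR9409-p3_2ss13GC17GT_2 each had 11.5 reads in ‘Mix’ and 0 in ‘Ant’, at least 3.96-fold lower. The last pair are overlapping forms that differ by 1 base at the 3′ end and list 1 pair of values, so they are not separate measurements.

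A far more abundant small RNA overlapped these forms. At the precursor place on A10 of bol-MIR9409-p3_2ss13GC17GT_1, the table also lists PC-3p-2236_580, where PC marks sequences that the authors found outside miRBase. These sequences share a run of 17 bases, and are shown with their seeds in capitals.
bol-MIR9409-p3_2ss13GC17GT_1: tTTTTTGTtcatcacttcatt
bol-MIR9409-p3_2ss13GC17GT_2: tTTTTTGTtcatcacttcattt
PC-3p-2236_580: tTGTTCATcacttcatttccc
PC-3p-2236_580 had 2229 reads in ‘Mix’ and 17 in ‘Ant’ (log2 -7.08), a change in the same direction as that of the miR9409 forms.

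The share of each arm differed between the libraries in several families, as the plot of 5′ arm shares shows. Over all members the 5′ arm held 43.6% of the reads in ‘Mix’ (42.6 to 44.6) and 20.7% in ‘Ant’. Without miR9569 it held 46.9% (45.9 to 47.9) and 38.8% (38.0 to 39.5). Over all sequences of the table the share was 34.1% in ‘Mix’ and 36.9% in ‘Ant’. By sequence, 18 of 72 on the 5′ arm were called higher and 12 lower, and 20 of 51 on the 3′ arm were called higher and 6 lower. The background was 26.5% higher and 18.9% lower on the 5′ arm and 28.1% higher and 19.6% lower on the 3′ arm.

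**Figure D3:**
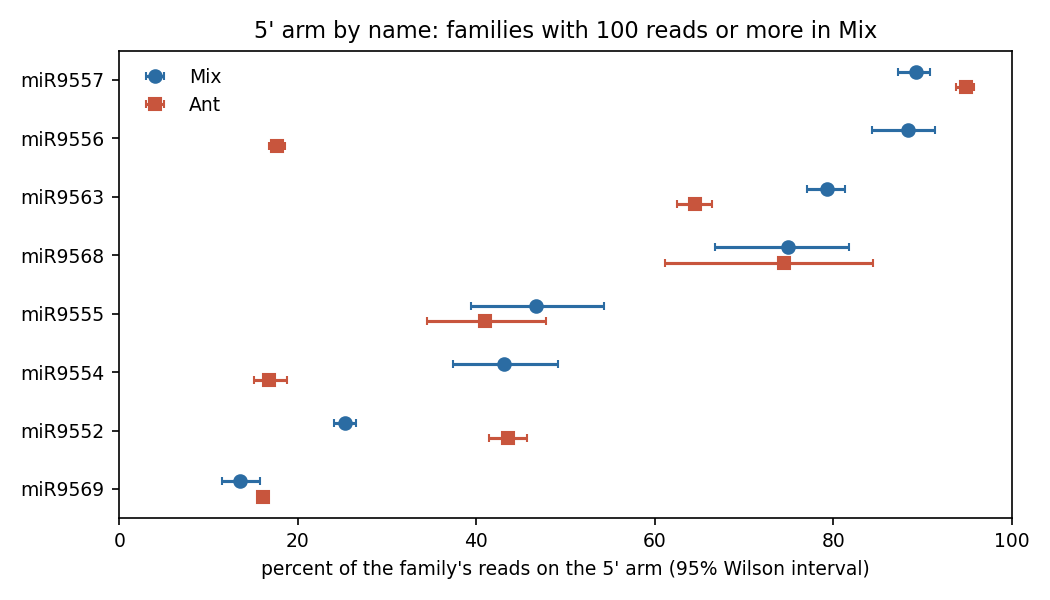
Percent of a family’s reads on the 5′ arm, as named by the authors, in ‘Mix’ (circles) and ‘Ant’ (squares) with 95% Wilson intervals, for families with at least 100 reads in ‘Mix’. miR9556 went from 88.4% to 17.6% and miR9554 from 43.1% to 16.8%, while the intervals of miR9555 and miR9568 overlapped.

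miR9563 differed from the other families in its number of forms. It made up 79 of the 123 sequences and 71 of the 97 precursor places, on 10 chromosomes and 1 scaffold, whereas no other family had more than 6 places. In reads it was modest: 1452 reads in ‘Mix’ and 2288.5 in ‘Ant’ (log2 0.61, 0.52 to 0.71), which was not called. By sequence, 20 were called higher (25.3%), 10 lower (12.7%) and 49 were not called, beside 27.3% higher and 19.3% lower over all sequences.

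The miR9563b hairpin held the most read forms. bra-MIR9563b-p5_2ss19AC20AG had 380.5 reads in ‘Mix’ and 611 in ‘Ant’ (log2 0.64, 0.45 to 0.82). bra-MIR9563b-p3_1ss1CT had 239 and 480 (log2 0.96, 0.73 to 1.19). Neither reached the fold needed for a call.

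The remaining 77 sequences, named miR9563a, were mostly rare. Only bra-MIR9563a-p5_2ss7AG19AT, with 60.5 reads in ‘Mix’ and 214.5 in ‘Ant’ (log2 1.78, 1.36 to 2.21), and bra-MIR9563a-p3_2ss13AG20GT, with 7 and 125 (log2 4.11, 3.03 to 5.46), reached 100 normalized reads. Both were called higher. The other forms are described by arm, length and shared bases.

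The arms of miR9563a differed in their ratios. The 25 sequences on the 3′ arm had 62 reads in ‘Mix’ and 331.5 in ‘Ant’, 5.18-fold higher after normalization. Of them 12 were called higher and 0 lower, beside 28.07% higher and 19.65% lower over all 3′ sequences. Of the 331.5 ‘Ant’ reads, 125 came from bra-MIR9563a-p3_2ss13AG20GT, which had 7 in ‘Mix’. The other sequences called higher had at most 2 reads in ‘Mix’. bra-MIR9563a-p3_2ss21AG23GT_1 and bra-MIR9563a-p3_2ss21AG23GT_2 each had 0 and 5.5 reads, 1.78-fold higher against the floor of 3 reads, below the fold of a call. With edgeR’s exact test, set as for miR9554, 6 were called higher and 0 lower on the 3′ arm, beside 3 and 2 on the 5′ arm. Over all sequences of the table, 17.1% were then called higher and 12.4% lower. The 52 sequences on the 5′ arm had 770.5 and 866 reads, 1.09-fold higher after normalization. Of them 8 were called higher and 10 lower, beside 26.46% higher and 18.9% lower over all 5′ sequences. The median log2 ratio was 1.54 on the 3′ arm, over the 19 sequences above 3 reads, and -0.22 on the 5′ arm, over 50. The 3′ sequences had a median of 1.5 reads in ‘Mix’ and 7 in ‘Ant’. Many of them thus passed 3 reads through ‘Ant’ alone, which by itself raises the 3′ median, so the medians are no separate measure of an arm difference. The 5′ arm held 92.6% of the miR9563a reads in ‘Mix’ (90.6 to 94.2) and 72.3% in ‘Ant’ (69.7 to 74.8).

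Forms with a final _1, _2 and so on in the name were counted apart in these numbers. The members have 6 groups of such forms with 15 sequences in all, and each group lists 1 pair of reads. The largest, bra-MIR9563a-p5_1 to bra-MIR9563a-p5_5, named after their values were seen, had 36 reads in ‘Mix’ and 9 in ‘Ant’ for each of the 5 sequences (log2 -2.05, -3.29 to -0.96). They are shown with the most read sequences of each arm, to let their shared bases be seen.
bra-MIR9563a-p5_1: aGCGGAATataagaacccgtctct
bra-MIR9563a-p5_2: cTTAGCGGaatataagaaccc
bra-MIR9563a-p5_3: gTTCTTAGcggaatataagaaccc
bra-MIR9563a-p5_4: tCTTAGCGgaatataagaacc
bra-MIR9563a-p5_5: tTAGCGGAatataagaacccg
bra-MIR9563a-p5_2ss7AG19AT: aAAAAAGTtaagaaccggttt
bra-MIR9563a-p3_2ss13AG20GT: tTTTTTAGttaagagttaata

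The 5 numbered forms are shifted copies of the same stretch and have different seeds in spite of it. With each such group counted once, 36 members were called higher and 13 lower, beside 27.3% higher and 19.0% lower over all sequences. The miR9563a sequences on the 5′ arm then had 8 called higher and 6 lower among 46. Their reads were 1.29-fold higher in ‘Ant’, with a median log2 ratio of -0.05. The 3′ arm then had 10 called higher and 0 lower among 23, and its reads were 4.92-fold higher in ‘Ant’.

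**Figure D4:**
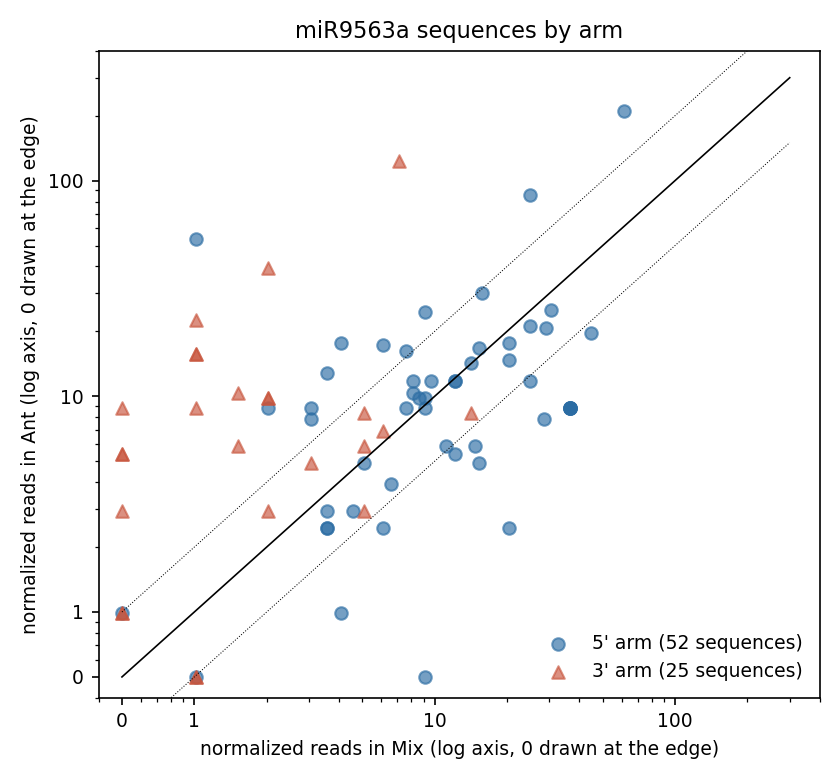
Normalized reads in ‘Mix’ and ‘Ant’ of the 77 miR9563a sequences on log axes, with 0 drawn at the edge, circles for the 5′ arm and triangles for the 3′ arm. The solid line marks equal values and the dotted lines a 2-fold difference; the 12 sequences of the 3′ arm called higher lie above the upper dotted line, and forms that list the same reads fall on 1 point.

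The bases of the miR9563a sequences overlapped widely. A run of 16 bases was shared with another member by 70 of the 79 miR9563 sequences, and 26 held such a run in common with the reverse complement of another. The most frequent run of 12 bases, ggaatataagaa, was in 35 of the 77 miR9563a sequences and in 39 of all 1152 sequences, or 3.39%. Of the 35, 34 were on the 5′ arm. Among the 35, 5 were called higher, 9 lower and 21 were not called, beside 27.3% higher and 19.3% lower over all 1152 sequences. Its reverse complement was in 0 miR9563a sequences and in 4 of the table, so that 3.73% held either strand.

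A run typical of the 3′ arm was gttaaaagttaa. It was in 19 miR9563a sequences, 18 of them on the 3′ arm, and in 21 of all sequences, or 1.82%. Its reverse complement was in 2 miR9563a sequences, and 2.52% of the table held either strand. Of the 19 sequences, 10 were called higher and 0 lower, beside 27.3% higher and 19.3% lower over all sequences. The reads of the 19 were 38 in ‘Mix’ and 176.5 in ‘Ant’. These 12-base runs do not overlap in sequence with each other, and both were chosen for being frequent among these names. A match is a description of the letters only.

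Both runs can be seen on 1 hairpin, at A01:26985488-26985647 on the plus strand, where bra-MIR9563a-p5_1 and bra-MIR9563a-p3_2ss19AG20AG are in capitals.
bra-MIR9563a: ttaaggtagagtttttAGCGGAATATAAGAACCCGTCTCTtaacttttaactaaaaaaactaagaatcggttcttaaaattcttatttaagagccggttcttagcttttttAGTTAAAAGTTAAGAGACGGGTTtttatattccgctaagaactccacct

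The sequences of this hairpin do not face each other as a duplex. On the deposited structure the overhangs were -12 and -13 bases, where a negative value means a recessed 3′ end, and 11 bases were paired. In none of the 13 miR9563 pairs that could be placed did both ends overhang by 2 bases. Among the other members 7 of 14 placed pairs did, beside 63 of 118 pairs (53.4%) of known miRNAs outside the families and 32 of 155 pairs (20.6%) of PC-named sequences. The 7 were the pairs of miR9408, miR9553, miR9558, miR9562, miR9560 on A06 and, at both places on A08, of bol-miR9409_L-1 with a sequence named miR6035.

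PC-named sequences were listed at many of the same places. A total of 35 names outside the families had a precursor that overlapped one of a member, of which 31 were PC-named and 27 lay at miR9563 places. Of the 35, 10 were called higher, 6 lower and 19 were not called, beside 27.3% higher and 19.3% lower over all sequences. PC-5p-7382_217, with 6 reads in ‘Mix’ and 309 in ‘Ant’ (log2 5.64, 4.50 to 7.10), shared 19 bases with bra-MIR9563a-p5_2ss3CG21CT, which had 1 read in ‘Mix’ and 54.5 in ‘Ant’ (log2 5.72, 3.20 to 11.1). Both were chosen after their values were seen, and reads of such overlapping sequences may have been divided between names, which was not tested.

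Precursors also overlapped each other. A total of 12 pairs of member precursors shared bases, all on opposite strands, and 10 of these pairs were of miR9563. At such places a read that matches 1 strand of an inverted repeat can match the other strand as well.

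By length, the members held more 24-nt and fewer 21-nt sequences than the table. A total of 43 of the 123 sequences were 24 nt long (35.0%, beside 23.8% of all 1152), and 52 were 21 nt long (42.3%, beside 49.1%). Of the 24-nt members, 35 were of miR9563a. The 24-nt members had 597.3 reads in ‘Mix’ and 640 in ‘Ant’, with a ratio of 1.04, and 30 of the 43 were not called, beside 207 of all 274 sequences of that length. The 21-nt members had 8766 and 84270.5 reads, with 18 of 52 called higher and 10 lower, near the 33.7% higher and 23.7% lower of all 21-nt sequences.

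The 11 members of 22 nt were the class with the highest ratio. They had 86.5 reads in ‘Mix’ and 2147.5 in ‘Ant’, a ratio of 24.1, which rests on miR9553 and bra-miR9408-3p, and 7 of the 11 were called higher, beside 34.0% of all 141 sequences of 22 nt. Without miR9569, 22-nt reads made up 0.975% of the member reads in ‘Mix’ (0.796 to 1.21) and 11.97% in ‘Ant’ (11.51 to 12.46), and 24-nt reads 6.73% (6.23 to 7.27) and 3.57% (3.31 to 3.85). Over the whole table, 22-nt reads made up 11.4% and 17.3%, and 24-nt reads 0.488% and 0.859%.

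The length shares of miR9563a differed between the libraries. Sequences of 24 nt held 53.5% of its reads in ‘Mix’ (50.2 to 56.9) and 32.9% in ‘Ant’ (30.3 to 35.6). Those of 21 nt held 37.1% in ‘Mix’ (33.9 to 40.4) and 57.4% in ‘Ant’ (54.6 to 60.2). Without the 2 miR9563a sequences above 100 normalized reads, both of 21 nt and an alternative chosen after seeing the data, 24 nt held 58.2% in ‘Mix’ and 45.9% in ‘Ant’, and 21 nt 31.6% and 40.6%. Which length was the main one in ‘Ant’ thus rests on those 2 sequences. With numbered forms counted once, 24 nt held 59.2% and 32.7%, and 21 nt 29.4% and 58.5%.

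**Figure D5:**
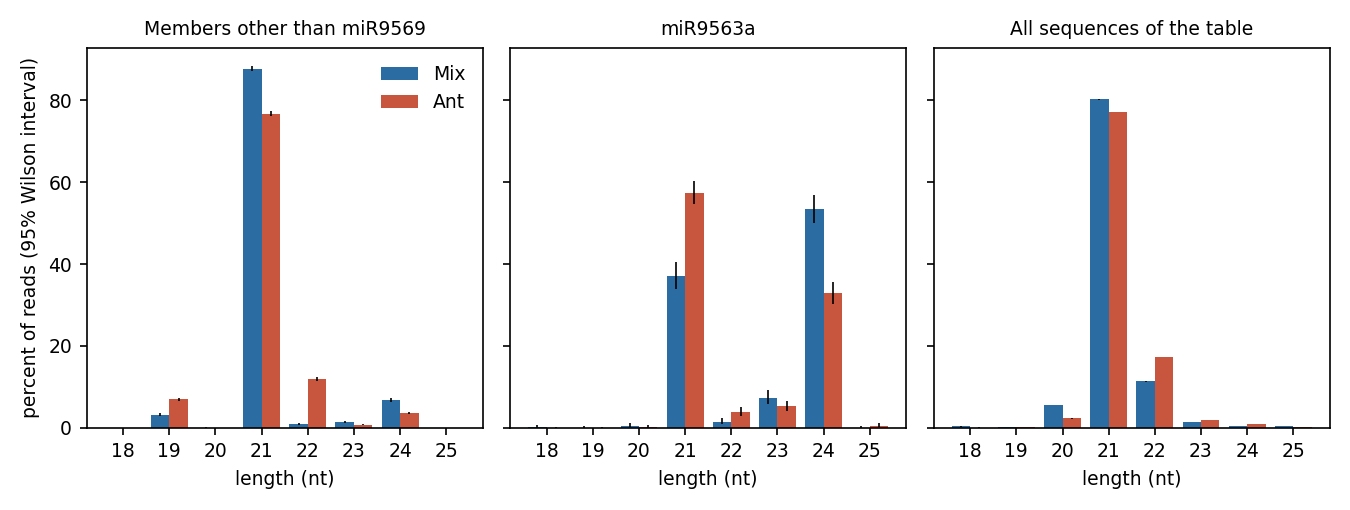
Percent of reads of each length from 18 to 25 nt in ‘Mix’ (blue) and ‘Ant’ (red), with 95% Wilson intervals, for the members other than miR9569, for miR9563a and for all sequences of the table. In miR9563a the 24-nt share was 53.5% in ‘Mix’ and 32.9% in ‘Ant’, and 21 nt was the main length in both libraries of the other panels.

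The first base was T in 60 of the 123 members (48.8%), beside 36.1% of all sequences, and A in 40. In plants, small RNAs that begin with U are bound mainly by Argonaute1 and those that begin with A by Argonaute2 and Argonaute4, as known from Arabidopsis.

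The member hairpins were long and rich in A and T. The 97 precursors had a median length of 157 bases, a median GC of 31.3% and a median folding energy of -80.2 as deposited, beside 144 bases, 34.7% and -70.1 for all 739 precursors and 125 bases, 41.6% and -54.1 for the 255 of known miRNAs outside the families. The authors’ score of energy, length and GC had a median of 1.6 (0.9 to 2.1), beside 1.3 over all precursors. Within the members, miR9563 hairpins stood at 159 bases, 30.7% GC and a score of 1.7, and the other 26 at 140.5 bases, 33.5% and 1.35.

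The authors also sorted sequences by how they map. Of the 40 members whose reads and precursor match a miRBase precursor and the genome, 17 were called higher and 6 lower. The median log2 ratio was 0.76 over the 39 of them above 3 reads in a library. Over all 252 sequences of that class 31.0% were called higher and 35.3% lower, with a median of -0.31 over the 237 above 3 reads. For 78 members the reads match the genome where the miRBase precursor does not, in a stretch that may fold into a hairpin. Of these, 21 were called higher and 12 lower, beside 31.5% higher and 18.3% lower over all 197 of that class. Their median was 0.06 over the 72 above 3 reads, beside 0.13 over the 173 such sequences of the class.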

How the data were processed

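Total RNA of ‘Ant’ and ‘Mix’ was made into 1 small RNA library each with a TruSeq kit. After filtering out adapter and low-complexity sequence and reads of tRNA, rRNA and the like, the authors compared unique sequences of 18 to 25 nt with miRBase 21.0 and the genome. The build behind the precursor positions is not given in the sources used here. The labels name 5 µg of total RNA and a larger number of libraries than the 2 described. The deposited reads are estimated counts, and the deposited normalized signal is those reads multiplied by 1 factor per library (1.016 for ‘Mix’, 0.984 for ‘Ant’). GC percent, folding energy and a score of energy, length and GC were also deposited by precursor.

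Members were found by number, each sequence was counted once, and families are sums over a number. The chi-square and two-sided Fisher’s exact tests ran over all 1152 sequences on rounded normalized values. Log2 ratios have exact Clopper-Pearson intervals, and values under 3 reads were set to 3 for bounds and medians. The members and comparison lists were chosen with earlier results of these data known. Named in full are sequences with at least 100 normalized reads in a library, the most read of each family, bra-MIR9569-p3, and those at 0 in 1 library with at least 10 reads in the other. Precursor classes and arm labels are the authors’. Sequences and hairpins are those of the deposited table. The reference gene table was not used. Python 3.11.15, numpy 2.4.6, pandas 2.3.3, scipy 1.17.1, matplotlib 3.10.9, R 4.3.3 and edgeR 4.0.16 were used.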

Additional observations from a re-analysis of the deposited data

How the results depend on the processing

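Of the 18 sequences above 100 normalized reads, 15 stood on the same side of the thresholds under all of the 13 alternatives that gave them a value. With an absolute log2 ratio above 2, bra-miR9552b-3p, bra-miR9554-5p_L-1R+1_1ss18AG and bra-MIR9563a-p5_2ss7AG19AT were no longer called. No family total changed its call under the alternatives run for it, and no called value changed direction. An absolute log2 ratio above 2 would, however, leave the called totals of miR9411 (1.43), miR9552 (-1.32), miR9558 (-1.44) and miR9568 (-1.32) uncalled. miR9409, not called, went from a log2 ratio of -0.63 to 0.02 with overlapping forms counted once and to -1.25 with at least 10 reads in a library. Counts of calls did change: members called higher were 38, but 21 with a pseudocount of 10 (18.8% of all sequences were then higher), 12 of the 39 that reached 10 reads in ‘Mix’ as well as in ‘Ant’ (25.8% of all such), and 24 with edgeR when a biological coefficient of variation of 0.4 was assumed for its exact test (17.1% of all). Members called lower were 18, but 11 with an absolute log2 ratio above 2 (13.7% of all), 4 of the 39 (28.2% of all such), and 6 with edgeR (12.4% of all). The 5′ share of miR9559 became 100% in ‘Mix’ and 100% in ‘Ant’ with at least 10 reads in a library, because its 3′ sequence was then left out. The size of the effect of biological variation is not known from 1 library per group. No paired analysis was possible because each group has 1 library and the labels carry no shared replicate numbers.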
